A study of Bos taurus with 24 samples.

Results

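The genes described here are those that Escherichia coli raised strongly in bovine monocyte-derived macrophages both early and late, at 3 hours and at 18 hours. They were chosen by their measured response, which is the exposed minus the control value in log2 CPM (reads of a gene relative to the library total), averaged over 6 pairs of wells per hour. A gene was taken when this mean was at least 3 at each hour (an 8-fold rise or more) and its mean level reached 5 CPM in control or exposed wells at each hour. Of 24616 genes listed, 72 met the rule, and 9 of these were set aside by name (NOS2, IL1B, ACOD1, CCL5, CXCL8, GBP5, IRF1, TNFAIP3 and CD274), which left 63 members. A further 73 genes passed the threshold at 3 hours alone and 68 at 18 hours alone. A symbol could be given to 19 members, and 44 are known here by their Ensembl identifier only. The symbols came from gene lists that favour genes with a small p-value for the difference between the high and low responder groups, so the named members are not a random sample of the 63. TNF and IL10, which the rule also sets aside by name, had no identifier in the sources used here and could be among the unnamed members.

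Macrophages sense Gram-negative bacteria largely through lipopolysaccharide and its receptor TLR4, which signals through NF-kB, MAP kinases and interferon regulatory factors. Many early target genes are switched off again within hours by feedback proteins such as A20 and the IkB family, or by decay of their mRNA, while others stay high or need newly made proteins and build up later. Cytokines, chemokines, regulators of NF-kB and survival proteins are known among both kinds.

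The macrophages were grown from blood monocytes of mid-lactating Holstein cows in serum-free medium with GM-CSF, so they are a cultured model and not tissue macrophages. The cows belonged to a high responder or a low responder group, named for how much nitric oxide their macrophages made when exposed to E. coli. Each phenotype gave 3 control wells and 3 wells with paraformaldehyde-inactivated E. coli at 3 hours and again at 18 hours, 24 libraries in all. A pair of wells is a control and an exposed well of one phenotype and hour with the same library number. The responder label rests on a response of these macrophages to the same bacteria, so a difference in response between the phenotypes is not independent of how the cows were grouped. The labels do not name the cow of a well, but the letters in the library codes recur once at each hour within a phenotype. They may mark 1 cow at both hours. Per the paper, each phenotype held 3 cows, and the cells of each cow gave a control and an exposed well at both hours. The 2 hours are therefore not independent of each other.

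Library totals ranged from 6297190 to 20936554 estimated counts. Of the macrophage and monocyte markers listed, 5 of 11 had an identifier, and all 5 were well above 0 in every library: CD68 at 1120 to 2680 CPM, CTSS at 4000 to 7630 CPM, CD14 at 80.4 to 581 CPM, AIF1 at 22.3 to 167 CPM and MSR1 at 26.6 to 848 CPM. E. coli changed none of the 5 past the threshold at 3 hours. At 18 hours it lowered MSR1 (log2 FC -3.76), CD14 (-0.75) and AIF1 (-0.95) and raised CD68 (0.61), and CTSS was not called (-0.10). The single B cell marker with an identifier, CD79A, stayed at or under 1.89 CPM, the NK cell marker PRF1 at or under 3.43 CPM and the fibroblast marker LUM at or under 0.772 CPM. PRF1 was raised at 18 hours. The part of these markers in the results was not tested. No marker of T cells, neutrophils, dendritic cells or platelets could be looked up. In bulk RNA, a change in the number of cells of a type and a change in RNA per cell cannot be told apart.

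The members together took 0.166% to 0.355% of all counts in control wells and 2.68% to 7% in exposed wells. Their median response was 4.33 at 3 hours and 4.61 at 18 hours, with a range of 3.02 to 9.83 and of 3 to 10.04. Every member was above 0 in each of the 12 pairs. The lowest response in a single pair was 1.46 at 3 hours and 1.28 at 18 hours, and 57 of the 63 members reached at least 2 in all pairs. As a description of the values that chose them, all 63 members were called raised at each hour, where 13.5% of the 11264 genes tested at 3 hours and 15.1% of the 11759 genes tested at 18 hours were called raised.

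The members nearest the threshold were an unnamed gene at 3.77 and 3, SDC4 at 4.18 and 3.01, and an unnamed gene at 3.02 and 6.55, each pair of values giving the 3 hour and then the 18 hour response. Just outside it, an unnamed gene stood at 3.37 and 3 (below the threshold before rounding), another at 4.12 and 2.99, and the chemokine gene CCL4 at 4.91 and 2.99.

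**Figure D1:**
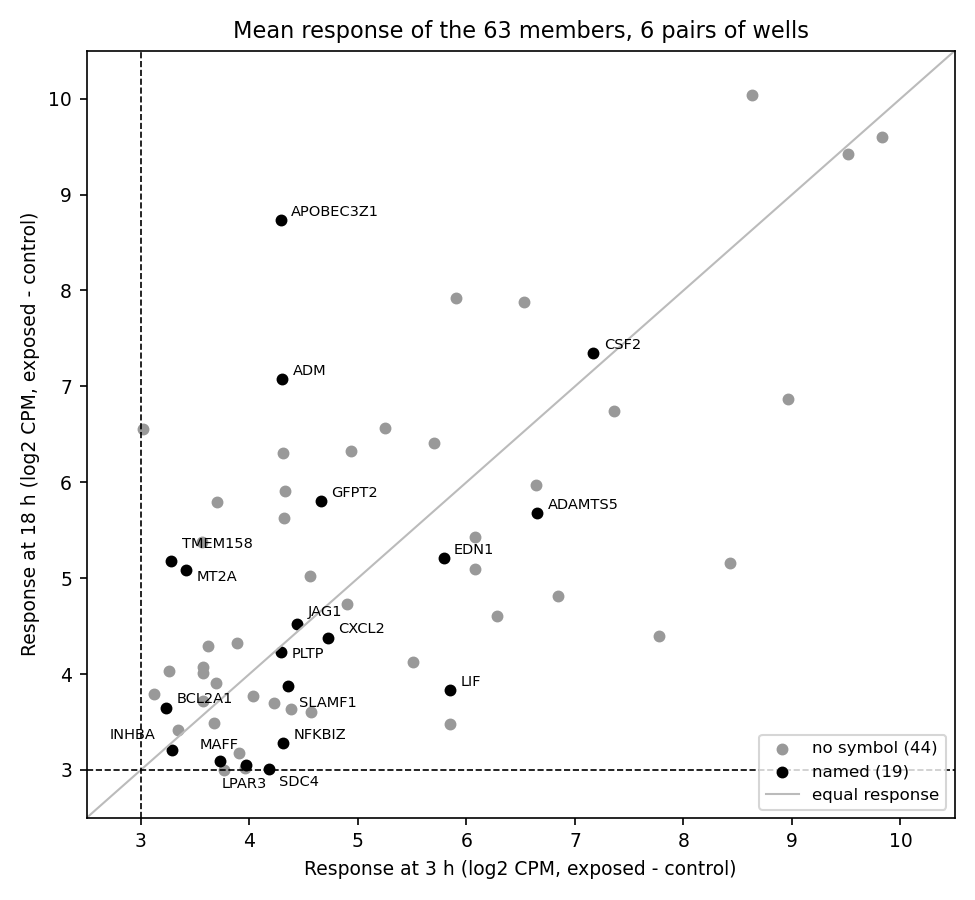
Mean response (log2 CPM, exposed minus control, 6 pairs of wells) of the 63 members at 3 hours (horizontal) against 18 hours (vertical). Black points are the 19 named members, grey points the 44 without a symbol, dashed lines mark the threshold of 3 and the diagonal an equal response. APOBEC3Z1 and ADM lie far above the diagonal, LIF lies below it and CSF2 lies close to it.

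Membership at both hours did not mean an equal response at both. The response was larger at 18 hours in 30 members and larger at 3 hours in 33. It was larger by over 1 at 18 hours in 16 members and at 3 hours in 10, and 37 members stayed within 1. Control levels moved little in log2 CPM: 1 member changed by over 1 between the hours in control wells, against 24 in exposed wells. Of the 44 unnamed members, however, 15 at 3 hours and 14 at 18 hours had mean control levels under 1 CPM. At so few reads the log2 CPM used here is drawn toward a floor, which limits how far control levels can move. CPM was scaled within each hour separately, so no test was made across hours.

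The named members with the largest gain were APOBEC3Z1, a cytidine deaminase of the innate antiviral APOBEC3 family, which went from 4.29 to 8.73, and ADM, the vasodilator peptide adrenomedullin, which went from 4.30 to 7.08. TMEM158 went from 3.28 to 5.18, MT2A, a metal-binding metallothionein, from 3.42 to 5.08, and GFPT2, an entry enzyme of the hexosamine pathway, from 4.66 to 5.80. In the other direction LIF, a cytokine of the interleukin-6 family, went from 5.85 to 3.83, the cell surface proteoglycan SDC4 from 4.18 to 3.01 and NFKBIZ from 4.31 to 3.28. Among unnamed members the change ran from -3.38 to 3.54.

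CSF2, which encodes GM-CSF, had the largest response of the named members when averaged over both hours, 7.17 at 3 hours and 7.35 at 18 hours. At 18 hours alone APOBEC3Z1 was higher. At 3 hours CSF2 read 4.91, 3.66 and 7.42 CPM in control wells of high responders and 23.5, 13.6 and 6.96 CPM in low responder controls. With E. coli it read 1500, 1870 and 226 CPM in high responders and 1930, 2000 and 1290 CPM in low responders. The exposed high responder well 94 stood far below the other exposed wells, while wells 92 and 93 lay within the range of the low responders. At 18 hours CSF2 read 1120, 359 and 993 CPM in exposed high responders and 784, 479 and 649 CPM in exposed low responders, with no control well above 5.83 CPM. The difference in its response between the phenotypes was 0.38 at 3 hours (edgeR adjusted p = 0.886) and 0.80 at 18 hours (adjusted p = 0.246).

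LIF read 51.9, 38.1 and 20.9 CPM in exposed high responders and 65.3, 70.5 and 58.4 CPM in exposed low responders at 3 hours, with at most 3.23 CPM in any control well. Mean control levels of LIF at that hour were 0.306 CPM in high and 1.75 CPM in low responders. Its response was larger in high responders, by 1.49 ± 0.77 at 3 hours (edgeR adjusted p = 0.462) and 1.82 ± 0.51 at 18 hours (adjusted p = 0.105). EDN1, the vasoconstrictor endothelin-1, read 1150, 676 and 477 CPM in exposed high responders and 985, 1530 and 912 CPM in exposed low responders at 3 hours. Its control wells did not overlap: 13.5, 4.46 and 7.72 CPM in high responders were all under the 35.9, 38.9 and 24.7 CPM of low responders. The response of EDN1 was larger in high responders, by 1.44 ± 0.31 at 3 hours (edgeR adjusted p = 0.111) and 1.76 ± 0.52 at 18 hours (adjusted p = 0.122). INHBA, a subunit of activin A, had the smallest mean response of the secreted factors, 3.29 at 3 hours and 3.21 at 18 hours.

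CXCL2, a chemokine that draws neutrophils, had the highest level of all members at 3 hours, a mean of 8670 CPM (6500 to 11600) in exposed wells, and the second highest at 18 hours, 8810 CPM (4990 to 12500). Its control wells already read 209 to 477 CPM, so its response was 4.72 and 4.38. Its estimated counts were not whole in any of the 24 libraries, as when RSEM divides reads between similar sequences, so its level is uncertain. The same held for the unnamed member ENSBTAG00000037558. Of the 7 chemokine genes with an identifier, all 7 were raised at 3 hours, and at 18 hours 6 were raised and CCL8 was lowered (log2 FC -3.84). These counts include CXCL2 and the set-aside CCL5 and CXCL8, which met the rule.

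Per transcript length, in exposed wells, CXCL2 stood first of the named members at both hours, with 10100 ± 2130 TPM (length-scaled transcript share, SD, n = 6) at 3 hours and 11100 ± 2770 TPM at 18 hours. CSF2 (2700 ± 1190 TPM) and BCL2A1 (2520 ± 514 TPM) followed at 3 hours and did not differ beyond their spread. At 18 hours MT2A (3670 ± 1710 TPM) and BCL2A1 (3270 ± 402 TPM) came next and were likewise within their spread. APOBEC3Z1 took place 13 of the 19 at 3 hours with 69.9 ± 16.3 TPM and place 4 at 18 hours with 1830 ± 657 TPM. GFPT2 was last at 3 hours (5.46 ± 2.16 TPM) and ADAMTS5, a protease of cartilage matrix, was last at 18 hours (6 ± 3.79 TPM).

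Of the surface molecules, JAG1 is a ligand of Notch receptors. At 3 hours it read 16.4, 16.9 and 21.1 CPM in control wells of high responders and 38.2, 38.9 and 31.2 CPM in low responder controls, which did not overlap. With E. coli it read 491, 934 and 730 CPM against 317, 632 and 437 CPM, which did. The response was larger in high responders by 1.66 ± 0.31 (log2 FC ± SE, edgeR adjusted p = 0.0731). At 18 hours the control wells read 18.2, 30.5 and 21.5 CPM in high responders and 35.1, 36.1 and 32.5 CPM in low responders, and the exposed wells 770, 709 and 1270 CPM against 680, 402 and 393 CPM, without overlap in either. The response difference at that hour was 1.49 ± 0.32 (adjusted p = 0.0525).

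SLAMF1 is a receptor on leukocytes that binds itself. At 3 hours it read 14.6, 9.67 and 30.5 CPM in control wells of high responders and 83, 58.4 and 44 CPM in low responder controls. The exposed wells read 571, 462 and 796 CPM against 741, 770 and 611 CPM. The phenotypes were thus apart in control wells and overlapped in exposed wells, and the response was larger in high responders by 1.63 ± 0.27 (edgeR adjusted p = 0.0537). At 18 hours the same held, with 11.3, 24 and 5.15 CPM against 42.4, 54.2 and 38.3 CPM in control wells and a response difference of 1.84 ± 0.51 (adjusted p = 0.104). LPAR3, a receptor for lysophosphatidic acid, was low throughout, at 9.83 to 110 CPM in exposed wells at 3 hours, with a response difference of 2.12 ± 0.43 (adjusted p = 0.0901).

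NFKBIZ, an atypical IkB protein that acts in the nucleus on NF-kB target genes, was on the list of NF-kB subunits and feedback genes. It was the only member among the 13 of the 37 listed genes that had an identifier. It read 1340, 1950 and 678 CPM in exposed high responders and 803, 1400 and 812 CPM in exposed low responders at 3 hours. Its response difference was 1.15 ± 0.22 at 3 hours (edgeR adjusted p = 0.0741) and 0.42 ± 0.13 at 18 hours (adjusted p = 0.15). The 12 other tested genes of that list were raised at both hours. They did not meet the rule or, in the case of TNFAIP3, were set aside by name. List genes without an identifier could not be looked up and could be among the unnamed members. MAFF, a small Maf transcription factor, was the one member among the 25 of 52 listed transcription factors with an identifier. Its responses were 3.73 and 3.09. BCL2A1, a survival protein of the BCL2 family, read 1070 to 2170 CPM in exposed wells at 3 hours and 1610 to 2410 CPM at 18 hours, from control levels of 133 to 230 CPM, and had one of the smaller responses, 3.23 and 3.65.

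MT2A read 9.69, 12.7 and 26.5 CPM in control wells of high responders and 36.5, 26.1 and 28.9 CPM in low responder controls at 3 hours, and 165, 265 and 412 CPM against 197, 149 and 271 CPM with E. coli. The groups overlapped in both kinds of well, while the responses of the pairs did not, and the response difference was 1.42 ± 0.24 (edgeR adjusted p = 0.0581). At 18 hours the exposed wells were apart, with 1060, 1190 and 954 CPM in high responders and 700, 200 and 414 CPM in low responders, and the response difference was 1.26 ± 0.30 (adjusted p = 0.0664).

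ADM was at or under 1.78 CPM in all control wells. It read 13.6, 7.16 and 36 CPM in exposed high responders and 23.9, 26.6 and 53.7 CPM in exposed low responders at 3 hours, and 317, 282 and 137 CPM against 116, 86.9 and 180 CPM at 18 hours. The response difference was 0.08 at 3 hours (edgeR adjusted p = 0.955) and 1.93 ± 0.43 at 18 hours (adjusted p = 0.0592), and the change between the hours was not tested. APOBEC3Z1 read 932, 724 and 1380 CPM in exposed high responders and 806, 383 and 647 CPM in exposed low responders at 18 hours, from at most 6.02 CPM in control wells, with a response difference of 2.20 ± 0.55 (adjusted p = 0.0824). PLTP, a phospholipid transfer protein, read 434, 488 and 586 CPM against 193, 63.3 and 204 CPM in exposed wells at 18 hours, without overlap, with a response difference of 1.45 ± 0.37 (adjusted p = 0.082).

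**Figure D2:**
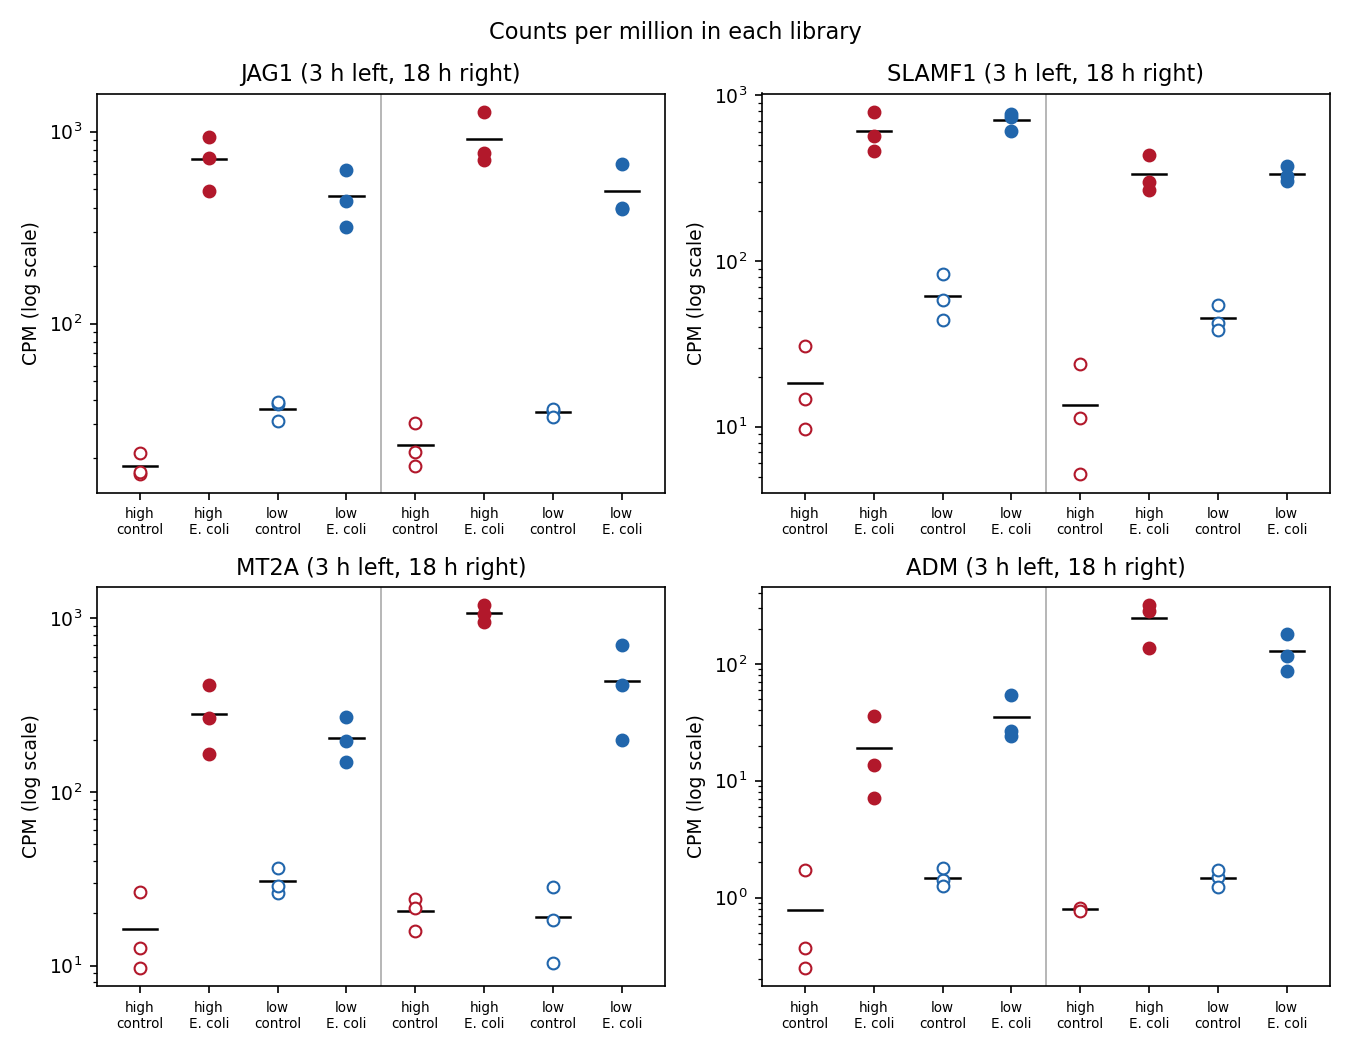
CPM (log scale) of JAG1, SLAMF1, MT2A and ADM in each of the 24 libraries, 3 hours on the left and 18 hours on the right of each panel. Open points are control wells, filled points wells with E. coli, red high and blue low responders, and bars are group means of 3; SLAMF1 is apart between the phenotypes in control wells and overlaps in exposed wells at both hours.

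The phenotypes were then compared across all 63 members. The rule used the mean over both phenotypes and not the difference between them, but a large response in one phenotype could carry a gene past it. Of the 63 members, 48 had a mean response of at least 3 in both phenotypes at both hours. In 14 the low responders alone were under 3 at an hour (MT2A, TMEM158, SLAMF1, SDC4, LPAR3, MAFF, INHBA and 7 unnamed genes), and in 1 the high responders were. The response was larger in high responders in 57 of 63 members at 3 hours and in 60 of 63 at 18 hours, and in 54 at both. The median difference was 0.98 at 3 hours and 0.69 at 18 hours on the log2 scale. Over all genes tested it was 0.03 and -0.02. Among the 48 members that reached 3 in both phenotypes, the response was larger in high responders in 42 at 3 hours (median 0.94) and in 46 at 18 hours (median 0.58).

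No single member passed the threshold for a difference in response (edgeR adjusted p under 0.05 and a FC over 1.5): 0 of 63 at 3 hours, where 0.178% of all genes tested were called, and 0 of 63 at 18 hours, where 1.62% were called. With an unadjusted p under 0.05, 28 members had a larger response in high responders at 3 hours against 8.44% of all genes tested, and 22 at 18 hours against 9.49%, and no member had a smaller one. DESeq2 called 13 members at 3 hours, of 60 that it gave an adjusted p, against 1.99% of all genes, and 5 of 63 at 18 hours against 3.72%. The responses of the 3 high responder pairs all exceeded those of the 3 low responder pairs in 25 members at 3 hours (10.7% of all genes tested) and in 15 at 18 hours (11.7% of all genes tested). In 8 members this held at both hours, against 2.89% of the 11218 genes tested at both, among them the named SLAMF1, EDN1, NFKBIZ, JAG1, MT2A and APOBEC3Z1. APOBEC3Z1 was narrowly apart, with 3.74 against 3.70 at 3 hours and 9.51 against 9.44 at 18 hours in the nearest pairs. So was NFKBIZ at 18 hours (3.41 against 3.32). The low responder pairs all exceeded the high responder pairs in 1 member at 3 hours, beside 1036 of 11264 genes tested. It was GFPT2 (response difference -1.02, edgeR adjusted p = 0.61). At 18 hours this held in 0 members, beside 1304 of 11759 genes.

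The pair of wells 94 of the high responders weighed on the 3 hour result. The median response of the members in that pair was 4.50, against 4.93 and 5.36 in the other high responder pairs and 3.80 to 4.04 in the low responder pairs. Without it, 30 members were called at 3 hours, and 4.47% of all genes tested. Leaving out any other pair at that hour gave 0 members called, and 0% to 0.113% of all genes. At 18 hours the medians were 5.13, 4.58 and 5.83 in high responders and 4.59, 4.13 and 4.07 in low responders, so the high responder pair 93 lay level with the low responder pair 91. Without the low responder pair 91, 7 members and 1.29% of all genes were called at that hour, and without the high responder pair 93, 3 members and 1.49% of all genes. Without the 18 hour high responder pair 94 or low responder pair 92, 0 members were called (1.07% and 0.253% of all genes). Without the high responder pair 91 or low responder pair 94 of that hour, 1 was (1.07% and 0.638%). The high responder pair 94 at 3 hours and pair 93 at 18 hours, which had the lowest medians of their group, carry the same letters in their library codes.

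**Figure D3:**
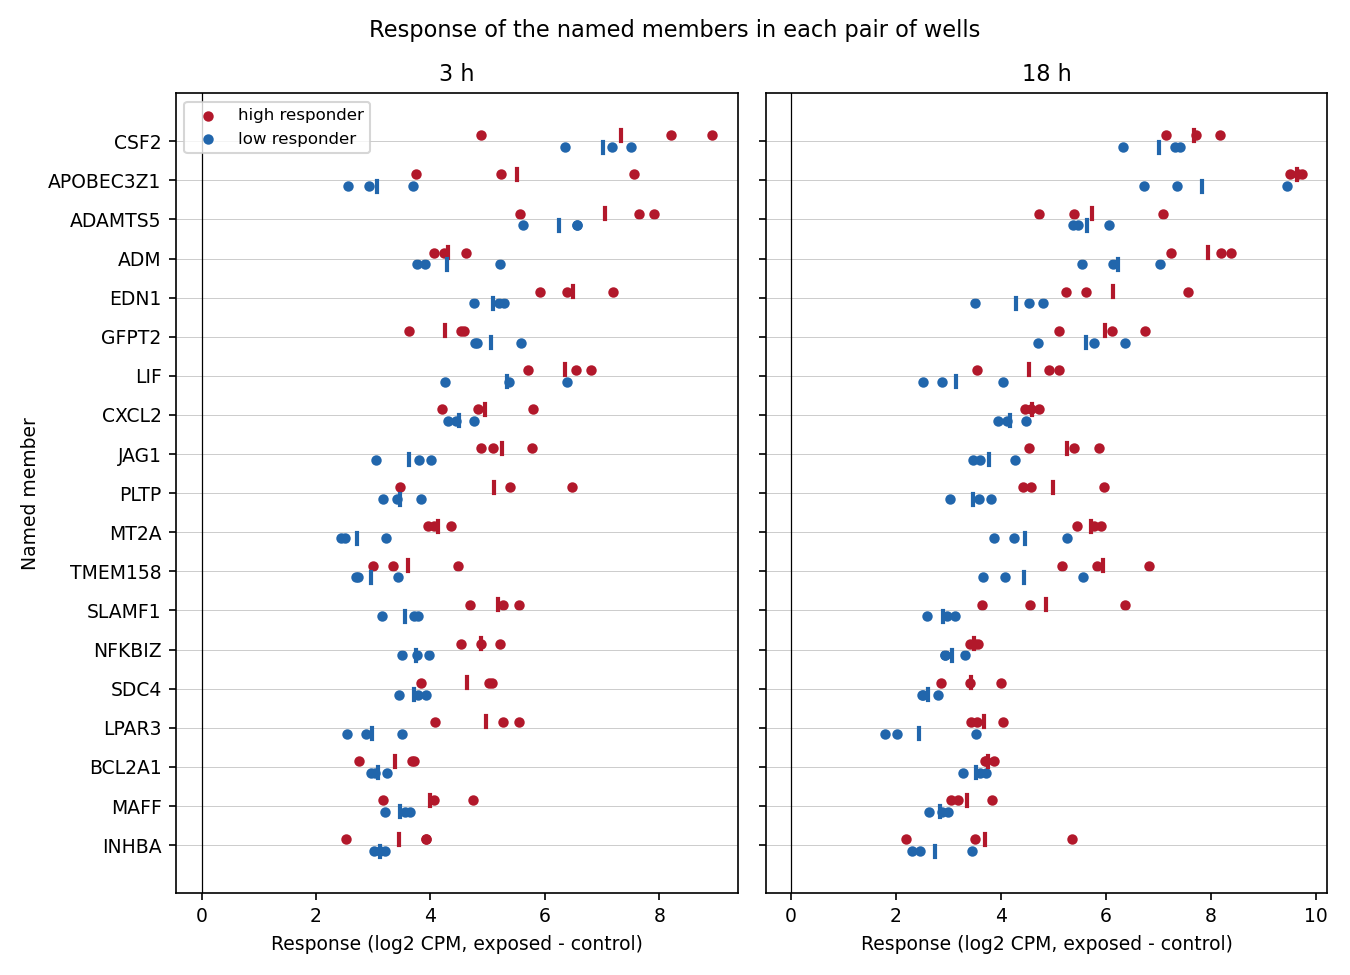
Response (log2 CPM, exposed minus control) of the 19 named members in each pair of wells at 3 hours (left) and 18 hours (right), red for high and blue for low responders, with a bar at the mean of 3 pairs. All points lie above 0, and JAG1, SLAMF1, MT2A, NFKBIZ, EDN1 and APOBEC3Z1 have all red points to the right of all blue ones at both hours.

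**Figure D4:**
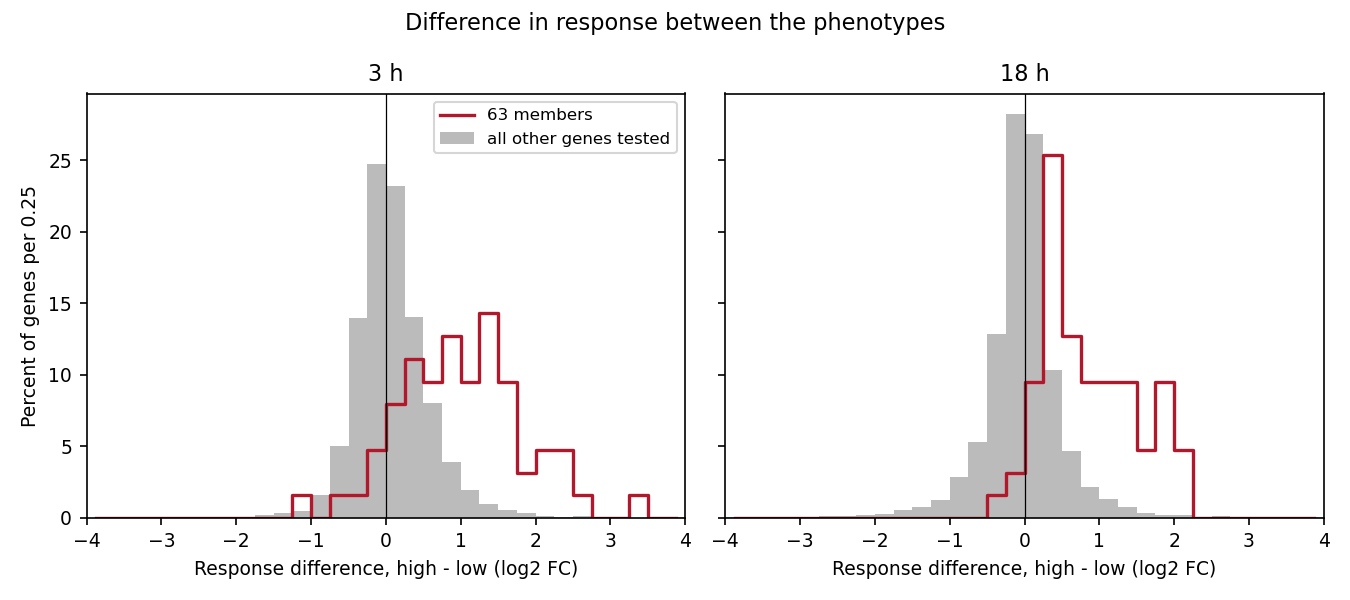
Difference in response between the phenotypes (high minus low, log2 FC from edgeR) for the 63 members (red line) and all other genes tested (grey bars), as percent of genes in bins of 0.25, at 3 hours (left) and 18 hours (right). The members lie mostly to the right of 0, with medians of 0.98 and 0.69.

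A like shift was seen in strongly induced genes outside the 63. From mean log2 CPM, genes past the threshold at 3 hours alone had a median difference of 0.86 at 3 hours and those past it at 18 hours alone one of 0.90 at 18 hours, beside 0.92 and 0.56 for the members on that scale. No test of the members against these genes was made.

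The part of the difference that lay in control wells and the part that lay in exposed wells were compared on the same scale over all 63 members, with no filter. At 3 hours 50 members were lower in control wells of high responders (median -0.71) and 43 were higher in their exposed wells (median 0.20). These were 79.4% and 68.3% of the members, beside 50.8% and 51.8% of all genes tested. In genes past the threshold at 3 hours alone the shares at 3 hours were 72.6% and 65.8%. At 18 hours 38 members were lower in control wells (median -0.24) and 51 were higher in exposed wells (median 0.50). These were 60.3% and 81%, beside 47.5% and 48.1% of all genes tested. In genes past the threshold at 18 hours alone the shares at 18 hours were 67.6% and 79.4%. The control part was the larger one in 38 members at 3 hours and in 26 at 18 hours. These levels share the wells from which the response was computed, so they divide the difference and do not add evidence for it.

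Between the phenotypes in control wells alone, 46 members passed the filter on low counts at 3 hours and 47 at 18 hours, and edgeR called 0 at each hour, where 0.00906% and 0.15% of all genes tested were called. With an unadjusted p under 0.05 there were 18 of 46 and 14 of 47 members, against 7.85% and 21.7% of all genes tested. In high responders 17 and 11 of them were lower, and 1 and 3 higher. DESeq2 called 7 and 6, against 2.18% and 6.1%. In exposed wells all 63 were tested, and edgeR called 0 at 3 hours (0.0839% of all genes) and 1 at 18 hours (0.0446%). With an unadjusted p under 0.05 there were 14 and 18 members, against 12.8% and 18.2% of all genes tested. In high responders 12 and 18 of them were higher, and 2 and 0 lower. DESeq2 called 9 and 14, against 2.75% and 5.83%. The one called by edgeR was the unnamed ENSBTAG00000047766, singled out after its values were seen. It read 39.8 ± 5.64 CPM in exposed high responders and 12.6 ± 2.24 CPM in exposed low responders (SD, n = 3 each). Its log2 FC was 1.63 ± 0.17 (SE, edgeR adjusted p = 0.042). The count was 0 without any one of the 3 high responder libraries or low responder 91 or 92, and 4 without low responder 94, where 0.459% of all genes were called.

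Members with few reads in control wells give imprecise responses. In 4 members the 3 control libraries of some group held at most 3 counts together, ADAMTS5 among them. In the 43 members with at least 30 counts in every control group, a limit chosen after the data were seen, 40 had a larger response in high responders at 3 hours (median 0.90) and 42 at 18 hours (median 0.56).

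The 44 members without a symbol held the largest responses. ENSBTAG00000021462 responded by 9.83 and 9.60, and ENSBTAG00000021326 by 9.52 and 9.42. The first read at most 1.27 CPM in control wells, and with E. coli 442, 900 and 1130 CPM in high responders and 129, 178 and 640 CPM in low responders at 3 hours. The second read at most 0.696 CPM in control wells, and 216, 538 and 212 CPM against 312, 232 and 331 CPM with E. coli at 3 hours. The unnamed members had a median response of 4.47 at 3 hours and 4.77 at 18 hours, with mean levels in exposed wells from 5.10 to 6840 CPM and from 7.98 to 12900 CPM. Of these, 40 had a larger response in high responders at 3 hours (median difference 1) and 41 at 18 hours (median 0.55), beside 17 and 19 of the 19 named ones (medians 0.93 and 1.26). The symbols came from lists that favour a difference between the phenotypes, so named and unnamed members are not a fair contrast.

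The lists of genes by role placed the named members among the wider response. The lists hold 160 genes with an identifier, of which 149 were tested at 3 hours and 151 at 18 hours. At 3 hours 116 were raised and 3 lowered, and at 18 hours 103 were raised and 15 lowered. These counts include the 8 members, which the rule chose for being raised. Without them, 108 of 141 were raised at 3 hours and 95 of 143 at 18 hours. Genes set aside by name, some of which met the rule, stay in all counts by list. Genes enter these counts only where the symbol sources held them, and those sources favour differences between the phenotypes. The 13.5% and 15.1% of all genes tested that were raised are thus not a like comparison. Of the 160 genes, 8 were members: CSF2, EDN1, INHBA and LIF among cytokines and growth factors, CXCL2 among chemokines, NFKBIZ, MAFF and, among co-stimulatory and surface molecules, SLAMF1. The 27 interferon-stimulated genes with an identifier, of 51 listed, held no member. Of these 27, 23 were raised at 3 hours, and 8 were raised and 4 lowered at 18 hours. Among the 18 tested cytokines and growth factors 13 were raised at each hour. IL6, set aside by name, stood at 6.69 at 3 hours and 0.99 at 18 hours and would not have met the rule. Of 12 tested cytokine and chemokine receptors 5 were raised at each hour, and 0 were members. Of 31 listed inflammatory enzymes 11 had an identifier, among them NOS2 and ACOD1, which met the rule and were set aside by name. All 11 were raised at 18 hours and 10 at 3 hours.

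The gene models of the members had a median length of 1578 bases, against 1945 bases for all genes tested at both hours, and 84.1% against 90.4% had a single annotated transcript. Counts that were not whole in some library were found in 5 members (7.94%) and in 6.31% of the genes tested.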

How the data were processed

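The authors trimmed paired-end reads with Trimmomatic, checked them with FastQC 0.11.5, aligned them with STAR to the UMD bovine assembly and estimated gene values with RSEM, per the methods and the submitters' processing notes, which also name DESeq2 1.22.2. The deposited expected counts per gene and library were rounded to whole numbers. The deposited TPM values, which RSEM scales by transcript length, were used only to order levels between genes.

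Counts were scaled per hour by TMM over all genes. Responses used log2 CPM with a prior count of 2. Tests used edgeR 4.0.16 (quasi-likelihood, Benjamini-Hochberg adjustment over all genes tested) in R 4.3.3, with a term for each pair of wells and an E. coli effect per phenotype. A SE is the log2 FC divided by the square root of F. The labels do not state the pairing in words, and it was checked: deviations from group means correlated at 0.327 to 0.733 for the 12 combinations of wells that share a number and at -0.569 to 0.00517 for the 24 that do not. The scripts were tested on simulated data. Alternatives included DESeq2 1.42.0. Named genes were the members with a symbol, with 2 others by identifier as leading members. Outside this rule, ENSBTAG00000037558 was named for its counts that were not whole. ENSBTAG00000047766 was named as the one member called in exposed wells. The members, lists and tests were chosen with earlier results of these data known. Sequences were not analysed here. Libraries of a group are separate samples, and p-values measure the spread between 3 per group.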

Additional observations from a re-analysis of the deposited data

How the results depend on the processing

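The number of members was 63, and 96 with a response of at least 2.5; under the other alternatives it stayed within 1.5 times, and it was 57 to 72 when leaving out each pair. Shares in brackets are the percent of all genes tested that were called in the same setting. Members called for a difference in response at 3 hours numbered 0 (0.178%). They numbered 11 with no filter on low counts (0.676%), 13 by DESeq2 (1.99%) and 10 at an adjusted p under 0.1 (1.09%). Leaving out each pair gave 0 to 30, with 30 without high responder 94 (4.47%). At 18 hours they numbered 0 (1.62%), but 1 with RLE size factors (1.92%), 12 with no filter (2.77%) and 5 by DESeq2 (3.72%). They numbered 1 with library code added to the exposure term (0.57%) and 6 at an adjusted p under 0.1 (3.81%). Leaving out each pair gave 0 to 7. The count was 7 without low responder 91 (1.29%) and 3 without high responder 93 (1.49%). It was 1 without high responder 91 (1.07%) or low responder 94 (0.638%). In control wells the count of 0 became 7 by DESeq2 at 3 hours (2.18%) and 6 at 18 hours (6.1%). Leaving out each library gave 0 to 3 at 18 hours, with 3 without high responder 93 (1.12%). In exposed wells at 3 hours it was 0 (0.0839%), 1 with no filter (0.351%) and 9 by DESeq2 (2.75%). Without 1 library it was 0 to 2 there, with 2 without high responder 92 (0.657%). In exposed wells at 18 hours it was 1 (0.0446%), 2 with no filter (0.274%) and 14 by DESeq2 (5.83%). Without 1 library it was 0 to 4 there, with 4 without low responder 94 (0.459%). The cause of these changes was not tested. Members with a larger response in high responders numbered 49 to 61 at 3 hours and 56 to 62 at 18 hours over all alternatives on the 63 members (these results were added after the data were seen), and their median difference was 0.74 to 1.36 and 0.44 to 0.85. Without the replicate block (the pairing of wells), 0 members were called at either hour (0%). The sign then turned for ADM at 3 hours (-0.03) and GFPT2 at 18 hours (-0.08). The sign of some small differences also turned elsewhere: ADAMTS5 at 3 hours was 0.56 by DESeq2 and -0.53 to 0.96 when leaving out each pair, ADM at 3 hours was -0.18 with the code term and -0.16 to 0.63, CSF2 at 3 hours was -0.58 to 1.70 and GFPT2 at 18 hours was -0.20 to 0.60 when leaving out each pair. Role list genes raised by E. coli stayed at 105 to 121 at 3 hours and 101 to 105 at 18 hours. With 3 pairs per phenotype, and few reads in control wells, single differences are imprecise.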
